A study of Mus musculus with 57 samples.

Results

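The genes *Ptprb*, *Tek*, *Tie1*, *Angpt1*, *Angpt2* and *Angpt4* encode the angiopoietin ligands, their Tie receptors and a phosphatase that acts on *Tek*. These 6 genes, of 56860 in the tables, were followed by name through 57 bulk RNA-seq libraries of mouse embryos, which cover 7 tissues and stages in 2 genotypes. They were chosen by the genotype values of *Ptprb*, which were lower in *Hoxa5*-/- trachea, lung and diaphragm. The genotype values of *Ptprb* in those tissues are therefore given as a description, without a test. Every gene of the group was found in both tables.

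The embryos were wild type (wt) or homozygous for the *Hoxa5* null allele, and all were kept in the 129/Sv background. The null allele carries a neomycin cassette inserted into the homeobox, is present in every cell of the mutant and leaves exon sequence that can still be counted. Trachea at E15.5, lung at E12.5, lung at E15.5, diaphragm at E15.5 and somites at E12.5 each had 4 wt and 4 *Hoxa5*-/- libraries. The E10.5 somites came from 4 wt and 3 *Hoxa5*-/- samples. Interscapular brown fat (iBAT), taken at E18.5, had 5 libraries of each genotype. The somite samples were blocks of neck and upper trunk that still hold tissues other than somites, without the spinal cord, limbs and inner organs. No embryo received a treatment. The 32 libraries of trachea, lung and diaphragm and the 25 of somites and iBAT come from different sequencing centres and form 2 tables, which were not tested against each other.

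*Angpt1*, made mostly by mural and mesenchymal cells, binds *Tek* on endothelial cells and activates it, which stabilizes vessels. *Angpt2*, made mostly by endothelial cells, also binds *Tek* and acts as an agonist or antagonist depending on context, while *Angpt4* is a less widely expressed agonist. *Tie1* binds no angiopoietin by itself but pairs with *Tek* and modulates it, and *Ptprb*, also called VE-PTP, removes phosphate from *Tek* and associates with VE-cadherin. The pathway is required for remodelling of embryonic blood and lymphatic vessels.

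In the deposited annotation of GRCm39, *Ptprb* lies at chr10:116111428-116225440 on the forward strand and *Tek* at chr4:94627526-94763213 on the forward strand. *Tie1* lies on the same chromosome at chr4:118328388-118347258 on the reverse strand. *Angpt1* lies at chr15:42288119-42540373 and *Angpt2* at chr8:18740279-18791578, both on the reverse strand, and *Angpt4* at chr2:151753130-151787257 on the forward strand. Their exons cover 13333 bases in *Ptprb*, 4712 in *Tek*, 4917 in *Tie1*, 5205 in *Angpt1*, 3690 in *Angpt2* and 2335 in *Angpt4*. *Angpt2* sits inside *Mcph1* on the opposite strand and shares 0 exon bases with it. *Angpt1* shares 737 exon bases with *Gm17473*, a noncoding gene on the opposite strand that held 0 to 13 counts per library beside 224 to 2214 of *Angpt1*, and the strand setting of the counting is not given in the sources used here.

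The 250 bases upstream of the canonical transcript start are shown for both receptors, whose levels the genotype comparisons turn on, read 5' to 3' along the gene from the GRCm39 genome. They are chr4:94627287-94627536 (forward) for *Tek* and chr4:118347259-118347508 (reverse) for *Tie1*. Capitals mark each match, on either strand, of AGGAAG (the core bound by ETS factors), AGATAA (the core bound by GATA factors) or TAATTA (a core bound by homeodomain proteins). These motifs were searched without regard to overlap.
*Tek*: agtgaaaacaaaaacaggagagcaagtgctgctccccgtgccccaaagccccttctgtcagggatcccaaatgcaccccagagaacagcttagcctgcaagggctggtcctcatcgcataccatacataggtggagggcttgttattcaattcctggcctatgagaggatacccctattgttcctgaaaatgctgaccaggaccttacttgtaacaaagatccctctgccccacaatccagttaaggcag
*Tie1*: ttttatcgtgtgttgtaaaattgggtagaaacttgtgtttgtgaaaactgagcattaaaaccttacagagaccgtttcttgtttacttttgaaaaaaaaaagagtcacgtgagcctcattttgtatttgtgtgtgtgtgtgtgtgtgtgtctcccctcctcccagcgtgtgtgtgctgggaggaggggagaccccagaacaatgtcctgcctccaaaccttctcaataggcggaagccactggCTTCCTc
The window of *Tie1* held 1 match, of AGGAAG, and that of *Tek* held none of the 3 motifs. Over 21761 such windows of the genome, 28.8% held AGGAAG, 8.76% AGATAA and 4.81% TAATTA. A match describes letters in the window and is not a binding site.

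The libraries held 18369905 to 72991481 counted reads. *Hoxa5* itself was lower in every mutant library than in any wt library of its context, and its fall was called in all 7 contexts (log2 fold change -0.92 in somites at E10.5 and -1.60 to -1.94 elsewhere). Defining markers of the labelled tissue were all above 0, among them 7 airway genes in lung, 6 cartilage genes in trachea, 6 skeletal muscle genes in diaphragm, 7 somite genes in somites and 7 brown adipocyte genes in iBAT. Of 24 blood endothelial markers none was at 0 in any group. Some libraries stood apart from their group in markers of other cells or in rRNA-like genes, and values of the 6 genes without them are given beside the results they move. In *Hoxa5*-/- trachea replicate 3, skeletal muscle markers summed to 2410 TPM (transcript abundance scaled to exon length and library) against 28.6 to 394 in the other trachea libraries, and cartilage markers to 4140 against 950 to 1690. In *Hoxa5*-/- lung at E12.5 replicate 1, haematopoietic markers summed to 12700 against 1550 to 2610 TPM. In *Hoxa5*-/- lung at E15.5 replicate 4, rRNA-like genes took 30.7% of all TPM, against at most 3.74% in any other library, which lowers the TPM of all other genes there. In diaphragm, wt replicate 3 had high airway and hepatocyte sums (561 and 9460 TPM), *Hoxa5*-/- replicate 3 had high hepatocyte and cartilage sums (11700 and 377 TPM) and *Hoxa5*-/- replicate 4 a high hepatocyte sum (9890 TPM), against 385 to 2240 TPM of hepatocyte markers in the other 5 libraries. Hepatocyte markers also summed to 486 TPM in *Hoxa5*-/- lung at E15.5 replicate 3, against 4.51 to 45.9 in the other lungs of that stage, and skeletal muscle markers to 956 TPM in wt iBAT replicate 1, against 98.7 to 365. Without that iBAT library the 5 genes tested there stood between 0.02 and 0.24 on the log2 scale and none was called.

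In wt embryos, lung at E15.5 had the highest level of both receptors and of the phosphatase, trachea had the highest level of *Angpt2* and *Angpt4*, and iBAT that of *Angpt1*. These levels are in TPM, which divides counts by exon length so that genes can be compared, and n is the number of libraries. Where trachea, lung or diaphragm is set beside somites or iBAT, tissue and sequencing centre cannot be told apart. That holds for the rank of iBAT in *Angpt1*.

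**Figure D1:**
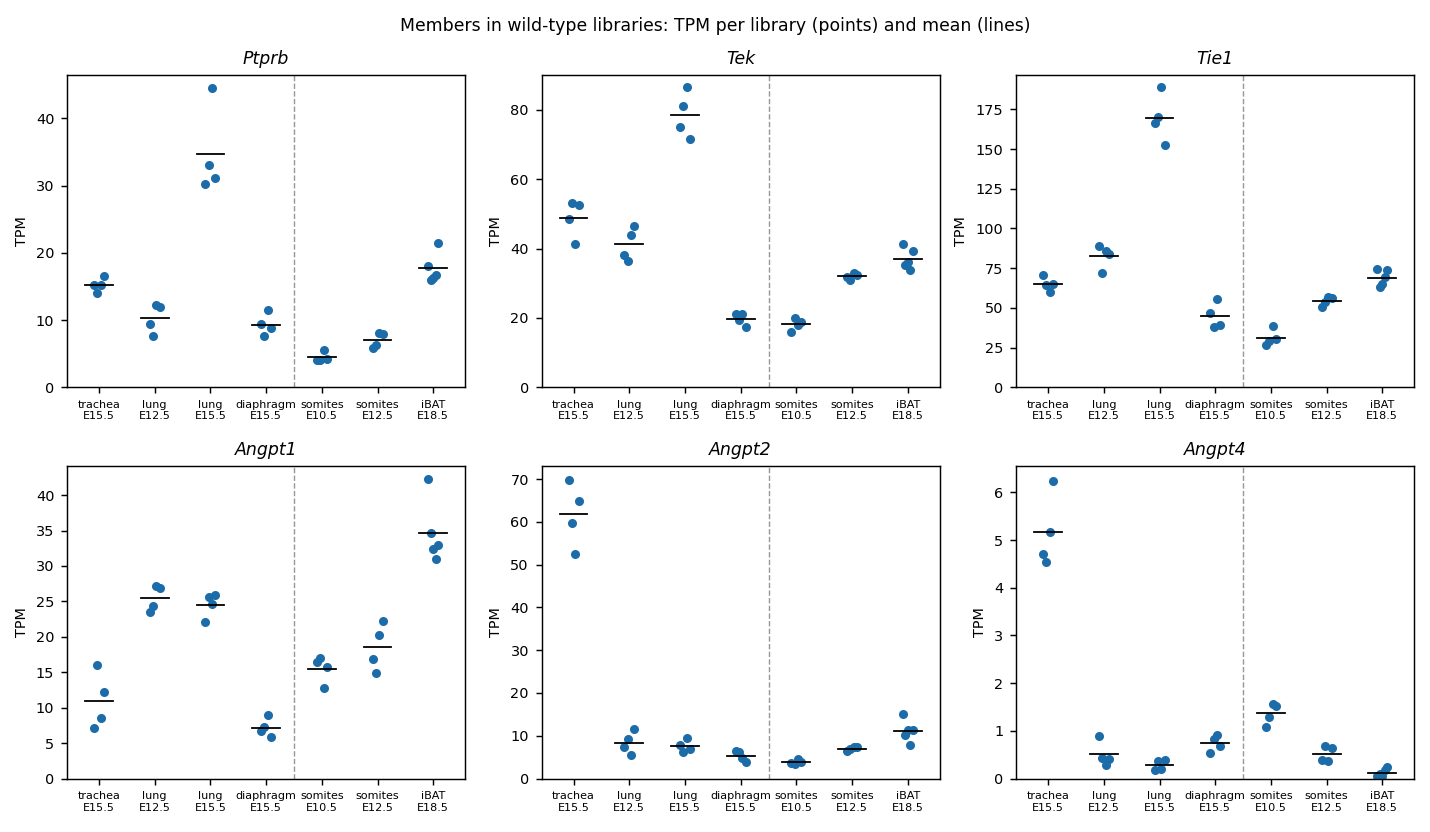
TPM of the 6 genes in each wt library (points) by tissue and stage, with the mean of the group (line); the dashed line separates the 2 tables, sequenced at different centres. Lung at E15.5 stands above all other groups for *Ptprb*, *Tek* and *Tie1*, with no overlap, and trachea for *Angpt2* and *Angpt4*.

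For *Ptprb*, the wt lung libraries at E15.5 stood at 30.2, 33.1, 44.5 and 31.1 TPM and those at E12.5 at 9.34, 7.65, 12.3 and 11.97. The mean at E15.5, 34.7 ± 6.62 TPM (SD, n = 4), was the highest of the 7 groups and did not overlap the next. iBAT followed with 17.7 ± 2.29 (n = 5) and overlapped trachea with 15.3 ± 1.04 (n = 4). Below them, lung at E12.5 (10.3 ± 2.22), diaphragm (9.31 ± 1.60) and somites at E12.5 (7.03 ± 1.13) overlapped from neighbour to neighbour (n = 4 each). Somites at E10.5, with 4.45 ± 0.73 (n = 4), lay below all of them.

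*Tek*, the receptor that binds the angiopoietins, reached 74.9, 81.2, 86.6 and 71.7 TPM in wt lung at E15.5, a mean of 78.6 ± 6.65 (SD, n = 4) that overlapped no other group. Trachea (48.9 ± 5.41, n = 4), lung at E12.5 (41.2 ± 4.68, n = 4) and iBAT (37.1 ± 3.03, n = 5) overlapped from neighbour to neighbour. Somites at E12.5 stood below these at 31.96 ± 0.876 (n = 4). Diaphragm (19.7 ± 1.76) and somites at E10.5 (18.1 ± 1.67), both n = 4, were lowest and overlapped.

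*Tie1*, the partner of *Tek*, had the highest mean of the 6 genes in every wt group, although in trachea its libraries overlapped those of *Angpt2*. Its libraries of wt lung at E15.5 stood at 166.5, 170.2, 188.8 and 152.6 TPM, a mean of 169.5 ± 14.9 (SD, n = 4) that ranked 905th of 17327 genes with at least 1 TPM there. Lung at E12.5 (82.6 ± 7.50, n = 4), iBAT (69.1 ± 5.11, n = 5) and trachea (64.8 ± 4.22, n = 4) formed an overlapping run below it. Somites at E12.5 (54.2 ± 2.93), diaphragm (44.8 ± 8.22) and somites at E10.5 (31.04 ± 4.999), all n = 4, formed another.

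Among the ligands, *Angpt1* was highest in iBAT, whose 5 wt libraries stood at 42.3, 34.7, 32.3, 31.02 and 32.97 TPM and overlapped no other group (34.7 ± 4.47, SD). Lung followed with 25.5 ± 1.81 at E12.5 and 24.6 ± 1.71 at E15.5 (n = 4 each), which overlapped. The other groups overlapped down the order to diaphragm, with 7.19 ± 1.36 (n = 4).

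*Angpt2* stood at 69.8, 59.8, 52.5 and 64.9 TPM in wt trachea, a mean of 61.8 ± 7.40 (SD, n = 4). The next group, iBAT, had 11.2 ± 2.60 (n = 5), so that trachea overlapped no other group, and the other 6 groups overlapped from neighbour to neighbour down to 3.88 ± 0.513 in somites at E10.5 (n = 4).

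*Angpt4* was low outside the trachea. Its wt trachea libraries stood at 4.72, 4.53, 5.17 and 6.25 TPM (5.17 ± 0.768, SD, n = 4), and somites at E10.5 had 1.36 ± 0.227 (n = 4). In the other 5 groups its mean lay between 0.126 and 0.739 TPM.

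The ligand balance followed these levels. Per library, the log2 ratio of *Angpt2* to *Angpt1* (TPM + 0.1) ranged from 1.89 to 3.28 in wt trachea, with a mean of 2.54. Group means were negative in the other 6 wt groups, from -0.44 in diaphragm to -1.97 in somites at E10.5, so that *Angpt2* exceeded *Angpt1* in trachea and was below it elsewhere.

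The next question was how far the genes changed with stage and tissue in wt embryos. Counts were tested with edgeR, and calls required both a fold change of 1.5 or more and an adjusted p below 0.05. The p-values measure the spread between these samples. In bulk tissue, fewer cells of a type and less RNA per cell cannot be told apart.

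Between E12.5 and E15.5 in wt lung, *Ptprb*, *Tie1* and *Tek* rose and neither lung-expressed ligand was called. They were 3 of 5 genes tested, against 15.4% of all genes tested that rose. The log2 fold change was 1.72 for *Ptprb* (SE 0.16, adjusted p = 1.62e-05), 1.003 for *Tie1* (SE 0.076, adjusted p = 4.41e-06) and 0.90 for *Tek* (SE 0.082, adjusted p = 1.49e-05). *Angpt1* differed by -0.09 (adjusted p = 0.336) and *Angpt2* by -0.18 (adjusted p = 0.501, 95% interval -0.66 to 0.29). Of the 24 blood endothelial markers, such as the junction protein *Cdh5*, 20 rose, with a median of 0.92 beside -0.01 over all genes tested. The rise of *Ptprb* exceeded that of 23 of these 24 genes, that of *Tie1* exceeded 14 and that of *Tek* 12.

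In wt trachea against lung at E15.5, the 5 genes with at least 1 TPM in both tissues were all called, against 30.2% of all genes tested. *Angpt4* passed that minimum through trachea alone and so could hardly fail to differ. It was higher by 4.14 on the log2 scale (SE 0.277), given as a description. *Angpt2* was higher by 2.99 (SE 0.142, adjusted p = 1.01e-06). The other 4 were lower in trachea: *Tie1* by a log2 fold change of -1.42, *Ptprb* -1.22, *Angpt1* -1.19 and *Tek* -0.72 (adjusted p from 1.59e-06 to 0.0023). The endothelial markers had a median of -1.26, with 21 of 24 called lower, and *Tek* differed less than this median.

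**Figure D2:**
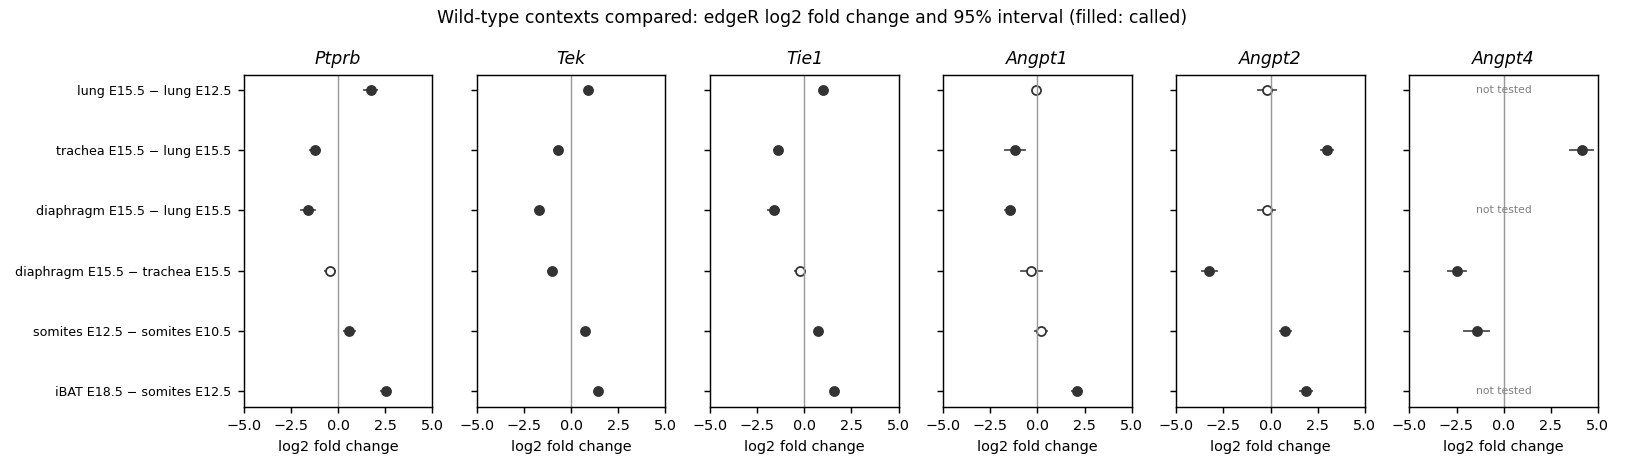
Log2 fold change (x axis) of each gene between pairs of wt groups (rows), with its 95% interval, from edgeR; filled points were called. The receptors and *Ptprb* share the sign in the lung stage, trachea and diaphragm against lung comparisons, while *Angpt2* and *Angpt4* are higher in trachea. *Angpt4* passed the TPM minimum through a single group in each pair shown, so its points, filled or not, are a description.

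In wt diaphragm against lung, *Tek*, *Tie1*, *Ptprb* and *Angpt1* were lower, 4 of 5 genes tested against 15.6% of all that were called lower. Their log2 fold changes were -1.69, -1.61, -1.59 and -1.47, with adjusted p from 6.59e-07 to 2.9e-05. *Angpt2* differed by -0.21 (adjusted p = 0.395). The endothelial markers had a median of -1.01, with 22 of 24 lower.

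In wt diaphragm against trachea, 2 of the 5 genes with at least 1 TPM in both were lower, against 18.4% of all. These were *Angpt2* (-3.24, adjusted p = 2.73e-06) and *Tek* (-1.01, adjusted p = 6.66e-05). *Angpt4*, tested through its level in trachea alone, had a log2 fold change of -2.50. *Ptprb* differed by -0.42, which passed the p threshold (adjusted p = 0.0179) at a fold change of 1.34, under the minimum. *Tie1* differed by -0.24 (adjusted p = 0.14) and the endothelial markers by a median of 0.05.

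In wt somites from E10.5 to E12.5, *Angpt2*, *Tek*, *Tie1* and *Ptprb* rose, 4 of the 5 genes with at least 1 TPM at both stages, against 42.6% of all genes called in either direction. The log2 fold changes were 0.78 for *Angpt2* (adjusted p = 0.00014), 0.75 for *Tek* (adjusted p = 5.46e-06) and 0.74 for *Tie1* (adjusted p = 6.22e-06). *Ptprb*, from 4.04, 4.07, 5.55 and 4.15 TPM to 5.87, 6.27, 8.08 and 7.92, rose by 0.60 (SE 0.129, adjusted p = 0.00112), a fold change of 1.51. Leaving out single libraries took it under the minimum for 5 of the 8. *Angpt4*, tested through its level at E10.5 alone, fell by 1.43 on the log2 scale, given as a description. *Angpt1* differed by 0.18 (adjusted p = 0.289). The endothelial markers rose by a median of 0.59, with 12 of 24 called higher and 1 lower.

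In wt iBAT against somites at E12.5, all 5 genes tested were called higher, against 66.3% of all genes in either direction. *Ptprb* differed most, by 2.53 on the log2 scale (SE 0.106, adjusted p = 7.55e-12), then *Angpt1* by 2.11, *Angpt2* by 1.88, *Tie1* by 1.56 and *Tek* by 1.42 (adjusted p at most 1.22e-08). The size depends on the scale. The log2 ratio of mean TPM was 1.33 for *Ptprb*, 0.90 for *Angpt1*, 0.68 for *Angpt2*, 0.35 for *Tie1* and 0.21 for *Tek*, in the same direction. On TPM *Tie1* (1.27-fold) and *Tek* (1.16-fold) thus stood under 1.5-fold. The 10 most counted genes took 13 to 15.6% of counts in iBAT and 3.59 to 7.68% in the other tissues. Their part in the gap between the scales was not tested. By edgeR the rise of *Ptprb* exceeded that of 23 of 24 endothelial markers, whose median was 1.27.

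The genotype question was whether receptors and ligands differed in *Hoxa5*-/- tissue where *Ptprb* did. Levels here are CPM, counts scaled to library size with TMM factors and not to gene length. Unlike TPM, they are not lowered by the rRNA-like counts of *Hoxa5*-/- lung at E15.5 replicate 4.

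**Figure D3:**
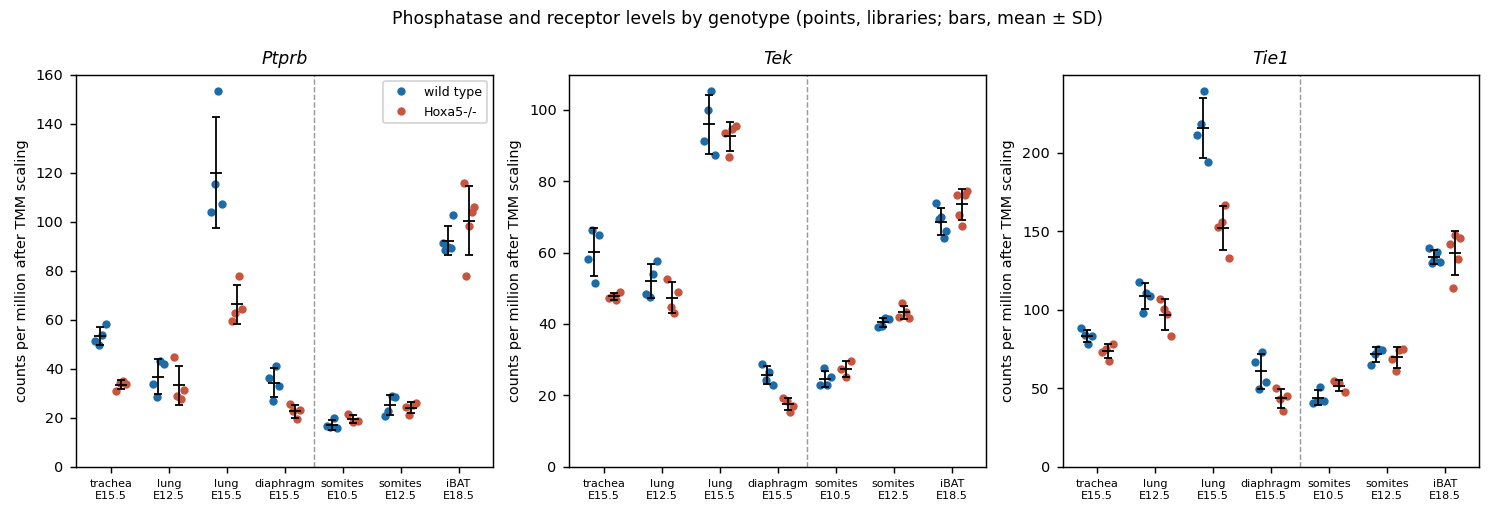
CPM (counts scaled to library size with TMM factors) of *Ptprb*, *Tek* and *Tie1* in each library (points; blue, wt; red, *Hoxa5*-/-) with mean ± SD (bars), by tissue and stage; the dashed line separates the 2 tables. The genotypes do not overlap for *Ptprb* in trachea, lung at E15.5 and diaphragm, for *Tek* in trachea, diaphragm and somites at E12.5, and for *Tie1* in trachea and lung at E15.5.

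*Ptprb* stood at 51.4, 49.8, 53.9 and 58.1 CPM in wt trachea and at 30.8, 34.0, 35.0 and 33.9 in *Hoxa5*-/- trachea. In lung at E15.5 it stood at 104.2, 115.3, 153.3 and 107.3 CPM in wt and at 59.7, 62.9, 77.9 and 64.6 in mutants. In diaphragm it stood at 36.1, 26.96, 40.9 and 32.9 CPM in wt and at 25.7, 22.5, 19.3 and 23.1 in mutants. The genotypes did not overlap in these 3 tissues, which is the pattern the genes were chosen for. The log2 fold changes, given as a description, were -0.67 in trachea (SE 0.069), -0.86 in the E15.5 lung (SE 0.132) and -0.60 for diaphragm (SE 0.134).

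In lung at E12.5 the genotypes of *Ptprb* overlapped, with 33.6, 28.2, 43.0 and 42.0 CPM in wt and 44.7, 28.96, 27.5 and 31.4 in mutants, and a log2 fold change of -0.15 (SE 0.172). The highest mutant library was replicate 1, the one rich in haematopoietic markers, and without it the value was -0.33. Leaving out the other libraries that stood apart gave -0.69 in trachea, -0.84 in lung at E15.5 and, without replicate 3 of both genotypes, -0.42 in diaphragm. Over all omissions of 1 library the value stayed between -0.70 and -0.63 in trachea, -0.94 and -0.70 in lung at E15.5 and -0.68 and -0.49 in diaphragm.

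*Ptprb* was not called in the tissues that the choice did not use. In somites at E10.5 it stood at 16.4, 15.97, 20.02 and 15.7 CPM in wt and at 21.3, 18.4 and 18.8 in mutants (log2 fold change 0.19, SE 0.12, adjusted p = 0.448). In somites at E12.5 the difference was -0.06 (SE 0.115, adjusted p = 0.999) and in iBAT 0.12 (SE 0.092, adjusted p = 1.0). The genotypes overlapped in all 3 groups.

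*Tek* in trachea stood at 58.2, 66.2, 51.5 and 64.9 CPM in wt and at 47.4, 47.8, 46.7 and 49.0 in *Hoxa5*-/-, so that all mutants were below all wt libraries. The means were 60.2 ± 6.77 and 47.7 ± 0.944 (SD, n = 4 each), with a log2 fold change of -0.33 (SE 0.082) that was not called (adjusted p = 0.603, 95% interval -0.52 to -0.15). *Tie1* in trachea did not overlap either, with 88.1, 83.6, 78.2 and 83.3 CPM in wt and 73.2, 74.8, 67.4 and 78.1 in mutants (log2 fold change -0.18, SE 0.062, adjusted p = 0.682). Without the mutant library rich in skeletal muscle and cartilage markers, *Tek* stood at -0.32 (adjusted p = 0.266) and *Tie1* at -0.14 (adjusted p = 0.373). Of *Tek*, *Tie1*, *Angpt1*, *Angpt2* and *Angpt4*, thus *Tek* and *Tie1* alone had mutant libraries below all wt libraries, against 1.93% of all genes tested. *Ptprb*, chosen for this pattern, is not counted. Cardiac markers moved with genotype in these libraries, with sums of 3120 to 5660 TPM in wt and 1560 to 3010 in mutant trachea. Blood endothelial markers summed to 986 to 1100 TPM in wt and 1040 to 1070 in mutants. The part of the cardiac RNA in these differences was not tested.

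In lung at E15.5, *Tie1* did not overlap between genotypes and *Tek* did. *Tie1* stood at 211.7, 218.6, 239.7 and 193.9 CPM in wt and at 152.6, 155.6, 167.0 and 133.0 in mutants. Its means were 216.0 ± 18.96 and 152.0 ± 14.1 (SD, n = 4 each), and the log2 fold change of -0.51 (SE 0.083, fold 1.42, 95% interval -0.69 to -0.32) was not called (adjusted p = 0.0793). Without the mutant library rich in rRNA-like counts it was -0.44 (adjusted p = 0.176), and without the one with hepatocyte markers -0.55 (adjusted p = 0.0447), under 1.5-fold. *Tek* stood at 91.3, 100.03, 105.4 and 87.3 CPM in wt and at 93.6, 86.7, 94.7 and 95.4 in mutants, which overlapped, with a log2 fold change of -0.05 (adjusted p = 0.95, 95% interval -0.21 to 0.10). Of *Tek*, *Tie1*, *Angpt1* and *Angpt2*, *Tie1* alone had mutants below all wt libraries, against 2.69% of all genes tested. *Ptprb*, chosen for this pattern, is not counted.

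In diaphragm the receptor that stood apart was *Tek*. It stood at 28.7, 24.3, 26.6 and 22.9 CPM in wt and at 19.1, 18.46, 15.3 and 17.1 in mutants, without overlap, with means of 25.6 ± 2.55 and 17.5 ± 1.68 (SD, n = 4 each). The log2 fold change was -0.55 (SE 0.097, fold 1.46, 95% interval -0.77 to -0.33) and just missed both limits (adjusted p = 0.0506). *Tie1* overlapped, with 66.3, 49.2, 73.3 and 54.0 CPM in wt and 50.1, 43.4, 35.5 and 44.7 in mutants (log2 fold change -0.48, SE 0.144, adjusted p = 0.203). Without replicate 3 of both genotypes, *Tek* stood at -0.46 (adjusted p = 0.123) and *Tie1* at -0.29 (adjusted p = 0.352). Without *Hoxa5*-/- replicate 4 alone, *Tek* stood at -0.54 (adjusted p = 0.142) and *Tie1* at -0.50 (adjusted p = 0.295). The genes with a mean of at least 1 TPM in both genotypes were, besides *Ptprb*, *Tek*, *Tie1*, *Angpt1* and *Angpt2*. Of these 4, *Tek* alone had mutants below all wt libraries, against 4.91% of all genes tested. *Ptprb*, chosen for this pattern, is not counted. Other cell type markers moved with genotype here: neural sums were 37.5 to 72.9 TPM in wt and 16.5 to 18.7 in mutants, and blood endothelial sums 800 to 1040 and 666 to 753. Airway sums overlapped, at 23.1 to 561 in wt, highest in replicate 3, and 14 to 62 in mutants. Their part in the result was not tested.

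In lung at E12.5, *Tek* (-0.14, adjusted p = 0.712) and *Tie1* (-0.17, adjusted p = 0.65) overlapped between genotypes. In somites at E10.5 both were not called at positive values of 0.15 for *Tek* (adjusted p = 0.487) and 0.24 for *Tie1* (adjusted p = 0.391). In somites at E12.5, *Tek* stood at 39.2, 39.6, 41.7 and 41.2 CPM in wt and at 42.1, 46.0, 43.2 and 41.7 in mutants, where the highest wt library lay just below the lowest mutant. Its log2 fold change of 0.10 was not called (adjusted p = 0.999), nor was that of *Tie1*, -0.04. In iBAT the values were 0.10 for *Tek* and 0.03 for *Tie1* (adjusted p = 1.0 for both), with overlap.

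No ligand was called between genotypes in any tissue. In trachea *Angpt2* stood at 65.5, 58.5, 51.2 and 62.8 CPM in wt and at 61.5, 59.0, 37.3 and 61.9 in mutants, overlapping (log2 fold change -0.12, adjusted p = 0.87). *Angpt4* stood at 2.80, 2.80, 3.19 and 3.82 CPM in wt trachea and at 4.99, 4.44, 3.07 and 4.77 in mutants, with 3 of 4 mutants above all wt libraries (0.45, SE 0.196, adjusted p = 0.736, and 0.59 with an adjusted p of 0.266 without mutant replicate 3). *Angpt1* ranged from 9.42 to 22.1 CPM in wt trachea and from 11.3 to 20.6 in mutants (0.26, SE 0.289, adjusted p = 0.845). Without mutant replicate 3, *Angpt1* stood at 0.43 (adjusted p = 0.505) and *Angpt2* at 0.04 (adjusted p = 0.872).

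In lung at E12.5 *Angpt2* stood at 7.23, 9.42, 5.42 and 11.2 CPM in wt and at 16.7, 10.3, 10.1 and 10.3 in mutants (0.51, SE 0.234, adjusted p = 0.632). Without mutant replicate 1, the highest and the one rich in haematopoietic markers, the value was 0.30 (adjusted p = 0.696). In lung at E15.5 it differed by 0.30 (adjusted p = 0.846) and in diaphragm by -0.28 (adjusted p = 0.553), with overlap in both. In somites at E12.5 *Angpt2* stood at 6.21, 6.87, 7.28 and 7.33 CPM in wt and at 8.84, 7.88, 7.49 and 7.35 in mutants, which did not overlap but nearly touched (0.19, adjusted p = 0.999). *Tek* and *Angpt2* were thus 2 of 5 genes with all mutants above all wt libraries in somites at E12.5, against 1.35% of all genes tested. *Angpt1* lay between -0.18 and 0.15 on the log2 scale in the 6 groups other than trachea. *Angpt4* had a mean of at least 1 TPM in both genotypes in trachea and in somites at E10.5, where it differed by 0.16 (adjusted p = 0.766). In diaphragm it passed the minimum through the mutants alone, with means of 0.739 TPM in wt and 1.03 in *Hoxa5*-/-, and its fold change there is not used.

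**Figure D4:**
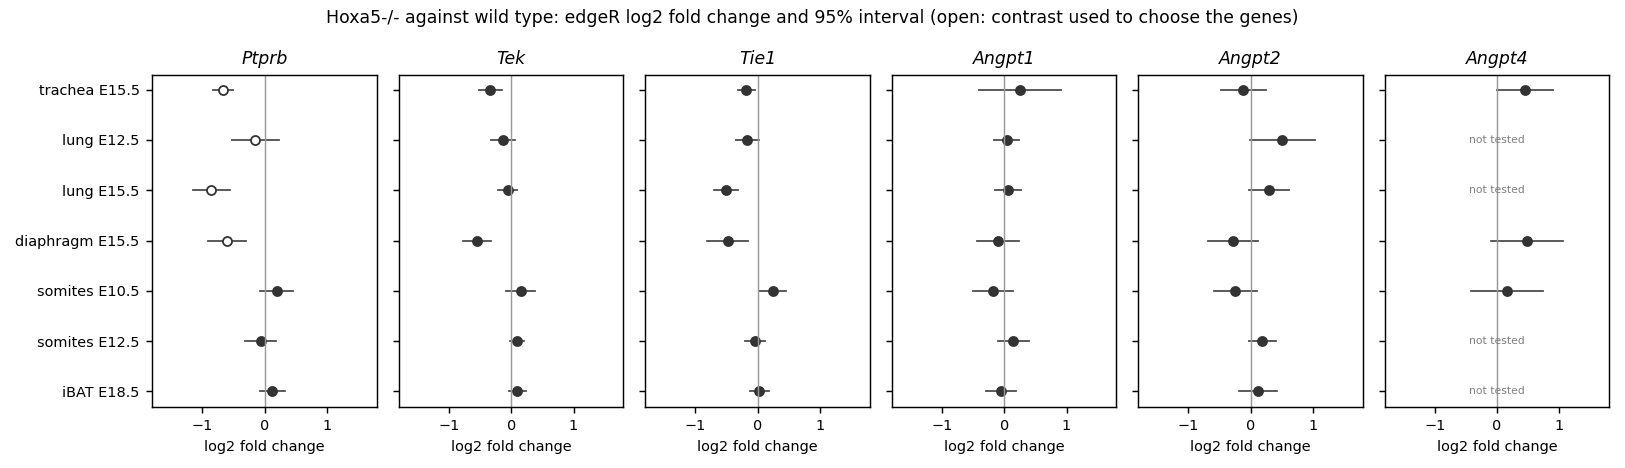
Log2 fold change of *Hoxa5*-/- against wt (x axis) for each gene by tissue and stage (rows), with its 95% interval, from edgeR; open points are the contrasts of *Ptprb* used to choose the genes. The point of *Angpt4* in diaphragm, where it passed the TPM minimum through the mutants alone, is not used. Intervals of *Tek* in trachea and diaphragm and of *Tie1* in trachea, lung at E15.5 and diaphragm lie below 0, those of *Tie1* in somites at E10.5 and of *Angpt4* in trachea lie above 0, and no filled point was called.

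By edgeR 0 genes of the group were called in any of the 7 genotype comparisons, the chosen contrasts of *Ptprb* aside. At an unadjusted p under 0.05 there were 3 of 5 tested in trachea (*Tek*, *Tie1* and *Angpt4*), 1 of 4 in lung at E15.5 (*Tie1*), 2 of 4 in diaphragm (*Tek* and *Tie1*, *Angpt4* aside), 1 of 6 in somites at E10.5 (*Tie1*), and 0 in lung at E12.5, somites at E12.5 and iBAT. No share of all genes at that unadjusted p is given, here or for the lists below. The shares of called genes do not measure these counts. DESeq2 with the same limits called 0 as well, although its adjusted p was 2.62e-05 for *Tie1* in lung at E15.5, 5.83e-05 for *Tek* and 0.0403 for *Tie1* in diaphragm, all under 1.5-fold. Over all alternatives the adjusted p ran from 2.62e-05 to 0.33 for *Tie1* in lung at E15.5, from 5.83e-05 to 0.158 for *Tek* in diaphragm and from 0.0142 to 0.449 for *Tie1* there. The share of all genes called by edgeR was small too, at 0.0156% in trachea, 0.0798% in lung at E12.5, 0.124% in lung at E15.5, 0.594% in diaphragm, 0.0215% in somites at E10.5, 0.00529% in somites at E12.5 and 0.00657% in iBAT.

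Since *Ptprb*, *Tek* and *Tie1* are made by endothelial cells, they were set beside the 24 blood endothelial markers. Of these, 0 were called by edgeR in any genotype comparison. In trachea the median log2 fold change of the list was -0.01, with 13 of 24 negative and 0 at an unadjusted p under 0.05. In lung at E15.5 it was -0.35, with 23 of 24 negative and 20 at an unadjusted p under 0.05, and in diaphragm -0.32, with 23 negative and 18 such. These counts have no share of all genes at that p beside them. DESeq2 called 1 of 24 in lung at E15.5 (*Sox18*) and 2 in diaphragm (*Cldn5* and *Clec14a*). No share of all genes called by DESeq2 is given, here or for the lists below. Over all genes tested the medians lay between -0.006 and 0.005. The list median in lung at E15.5 was -0.31 without the mutant library rich in rRNA-like counts and -0.40 without the one with hepatocyte markers, where edgeR called 1 of 24 (*Emcn*). In diaphragm it was -0.22 without replicate 3 of both genotypes and -0.34 without *Hoxa5*-/- replicate 4. In lung at E12.5 it was -0.11, in somites at E10.5 0.12, in somites at E12.5 -0.04 and in iBAT 0.10.

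Within that order *Ptprb* lay below all 24 markers in trachea and in lung at E15.5, and 2 of 24 lay below it in diaphragm. The genes were chosen for lower *Ptprb* in these tissues, so its low place follows in part from the choice and is a description. *Tek* lay below all 24 in trachea, above 23 of them in lung at E15.5, and 4 lay below it in diaphragm. *Tie1* had 2 of 24 below it in trachea and in lung at E15.5 and 6 in diaphragm.

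The ratio of a gene to the list, taken per library as its log2(TPM + 0.1) minus the mean of the 24 markers, gives the same comparison on single libraries. For *Ptprb* it went from -1.12 in wt to -1.78 in mutant trachea, from -1.14 to -1.64 in lung at E15.5 and from -1.57 to -1.82 in diaphragm, lower in mutants without overlap each time. In diaphragm the genotypes nearly touched, at -1.706 in wt replicate 2 and -1.718 in mutant replicate 1. The *Ptprb* ratio overlapped in lung at E12.5 (-1.98 and -2.04), somites and iBAT. For *Tek* the ratio was lower in mutant trachea (0.54 in wt, 0.23 in mutants) and higher in mutant lung at E15.5 (0.06 and 0.34), without overlap, and it overlapped in diaphragm (-0.48 and -0.70). The *Tek* ratios of trachea nearly touched too, at 0.252 in wt replicate 3 and 0.241 in mutant replicate 2. For *Tie1* the ratio was lower in mutant lung at E15.5 (1.16 and 0.99). These ratios were not tested, and those of *Ptprb* in trachea, lung and diaphragm reuse the values by which the genes were chosen.

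**Figure D5:**
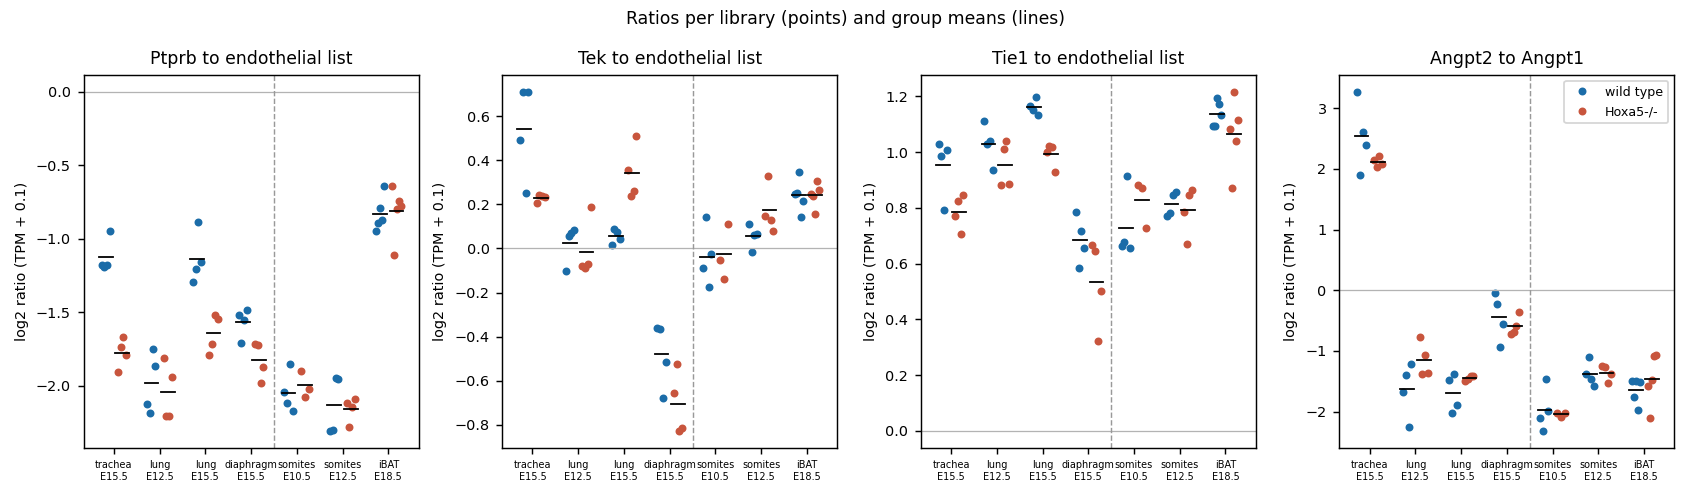
Log2 ratio of TPM + 0.1 in each library (points; blue, wt; red, *Hoxa5*-/-) with group means (lines), for *Ptprb*, *Tek* and *Tie1* against the mean of 24 blood endothelial markers and for *Angpt2* against *Angpt1*; the dashed line separates the 2 tables. The *Ptprb* ratio is lower in mutant trachea, lung at E15.5 and diaphragm, where its values were used to choose the genes. The *Tek* ratio is lower in mutant trachea and higher in mutant lung at E15.5, and the *Angpt2* to *Angpt1* ratio overlaps between genotypes throughout.

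Between the genes, the log2 ratio of *Ptprb* to its substrate *Tek* also holds the *Ptprb* values of the choice and is a description. It was -1.19 in wt and -1.98 in mutant lung at E15.5, without overlap, and -1.67 and -2.01 in trachea, where the genotypes overlapped once the pseudocount was raised to 1. In diaphragm, where both were lower, it was -1.08 and -1.12 and overlapped. *Tie1* to *Tek* was lower in mutant lung at E15.5 (1.11 and 0.65). *Angpt2* to *Angpt1* overlapped between genotypes in all 7 groups.

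The difference of a genotype effect between tissues or stages was tested as an interaction, for *Ptprb* in the 2 pairs of somites and iBAT, for *Tek*, *Tie1*, *Angpt1* and *Angpt2* in all 6 pairs and for *Angpt4* in the 4 pairs where a group reached 1 TPM. *Angpt4* entered these pairs through the groups where it was high, in diaphragm against lung the *Hoxa5*-/- diaphragm alone. Its interactions are counted but not read further. Of 30 such tests edgeR called 0, against 0.0267% of all genes called for the lung stages, 0.00502% for trachea against lung, 0.73% for diaphragm against lung, 0.439% for diaphragm against trachea, 0.0147% for the somite stages and 0.0% for iBAT against somites. At an unadjusted p under 0.05 there were 8, and no share of all genes at that p is given beside them. *Angpt4* in the somite stages was 1 of these 8. The smallest adjusted p was that of *Tek* in diaphragm against lung at E15.5, where the effect was lower in diaphragm by 0.50 on the log2 scale (SE 0.121, adjusted p = 0.0935). DESeq2 gave it an adjusted p of 0.00846, and the range over all alternatives was 0.00846 to 0.211. *Tie1* between the lung stages differed by -0.34 (adjusted p = 0.93).

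The other genes of the pathway were described as a list of 29: sheath, integrin and protease genes that act on the ligands and receptors, such as *Svep1*, adaptors and kinases below *Tek*, such as *Grb14*, *Dok2* and *Akt1*, and nuclear factors and effectors, such as *Foxo1*, *Klf2* and *Nos3*. In wt lung 8 of 29 rose and 2 fell from E12.5 to E15.5, where 24.6% of all genes tested were called in either direction, with *Gata2*, an endothelial transcription factor, up by 1.16 and *Grb14* by 1.11. In wt trachea against lung 2 were higher and 2 lower (all genes, 30.2%), among them *Svep1*, a matrix protein that binds *Tie1*, at -1.95. In wt diaphragm 5 were higher and 4 lower than in lung (all genes, 36.4%), and 4 higher and 6 lower than in trachea (all genes, 32.5%). In wt somites 17 rose and 2 fell (all genes, 42.6%), led by *Klf4* (3.42), a transcription factor, and *Svep1* (2.67), and in iBAT against somites 8 were higher and 11 lower (all genes, 66.3%). The genes named here for wt were chosen after their values were seen.

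Between genotypes 0 of the 29 were called by edgeR in any of the 7 groups, with 0 to 9 at an unadjusted p under 0.05. DESeq2 called 1, *Grb14* in diaphragm. The median of the list lay between -0.03 and 0.01 in trachea, lung, diaphragm, somites at E12.5 and iBAT, and at 0.20 in somites at E10.5, where 22 of 29 were positive. The largest differences were *Grb14*, an adaptor that binds activated *Tek*, at -0.80 in diaphragm (SE 0.17, adjusted p = 0.0903), *Gata2* at -0.64 in trachea (SE 0.18, adjusted p = 0.662), *Klf4* at -0.58 in lung at E15.5 (adjusted p = 0.557) and *Grb7*, another adaptor, at 0.74 in somites at E10.5 (adjusted p = 0.391).

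*Ptprb* belongs to the R3 class of receptor phosphatases, of which *Ptprj*, *Ptpro*, *Ptprq* and *Ptprh* were followed. Of these 4, 1 to 3 passed the TPM minimum per group and 0 were called by edgeR between genotypes. *Ptprj*, the one tested in every group, differed by -0.09 in trachea (adjusted p = 0.853) and by 0.07 in lung at E15.5. *Ptpro* in diaphragm, at -0.80 (SE 0.17, adjusted p = 0.0842), was called by DESeq2 alone. Of 6 VEGF receptor and junction genes 0 were called by edgeR or DESeq2. *Cdh5*, the VE-cadherin with which *Ptprb* associates, stood at -0.41 in lung at E15.5 (SE 0.07, adjusted p = 0.105) and -0.32 in diaphragm (adjusted p = 0.237).

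The lists of lymphatic and mural cells were read beside these. By edgeR 0 genes of either were called in trachea, in lung at E12.5, in somites or in iBAT, nor were mural genes in lung at E15.5 or lymphatic genes in diaphragm. DESeq2 called more. Of 9 lymphatic genes it called 2 in lung at E12.5 (*Lyve1* and *Stab2*) and 2 in diaphragm (*Ccl21a* and *Mmrn1*). Of 11 mural genes it called 1 in trachea (*Rgs5*) and 4 in diaphragm (*Cnn1*, *Kcnj8*, *Myh11* and *Rgs5*). In lung at E15.5, 2 of 8 lymphatic endothelial genes fell by edgeR (0.124% of all genes were called there), with 5 of 8 negative and values from -1.79 to 0.58. They were the hyaluronan receptors *Lyve1* (-1.79, SE 0.18, adjusted p = 0.0088) and *Stab2* (-1.57, SE 0.18, adjusted p = 0.0126), and without the library rich in rRNA-like counts 1 of 8, *Lyve1*, was called. In diaphragm, 2 of 11 mural genes fell by edgeR (0.594% of all genes were called), with all 11 negative, from -4.34 to -0.17. They were the smooth muscle genes *Myh11* (-4.34, SE 0.46, adjusted p = 0.00679) and *Cnn1* (-3.30, SE 0.43, adjusted p = 0.0152). Without replicate 3 of both genotypes there were 3, these and *Kcnj8*. Of the neural genes 3 of 5 fell there as well. Their part in the values of *Ptprb*, *Tek* and *Tie1* was not tested, and these genes were chosen after their values were seen.

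The genes most like each member were sought by the correlation of log2(TPM + 1), as deviations from the group means, over the 32 libraries of trachea, lung and diaphragm, among 18321 genes. Points share libraries, depth and the make-up of each sample, so r is a description. For *Ptprb* the closest were *Pecam1* (r = 0.84), an endothelial adhesion protein, *Icam2* (0.82) and *Rapgef5* (0.80), and over the 25 libraries of somites and iBAT the same pairs had 0.45, 0.03 and 0.38. For *Tie1* they were *Cdh5* (0.88), *Ramp2* (0.88) and *Mmrn2* (0.86), with 0.82, 0.24 and 0.79 in the second table. For *Tek* they were *Serpine2* (0.83), *Opcml* (0.83) and *Ube2e2* (0.82), with 0.38, 0.15 and 0.43.

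For the ligands the closest genes were less close. They were *Ghr* (0.77), *Sema3a* (0.76) and *Smarca1* (0.76) for *Angpt1*, *Kcnmb1* (0.73), *Notum* (0.65) and *Kcng1* (0.65) for *Angpt2*, and *Igfbpl1* (0.62), *Zfp804a* (0.60) and *H4c9* (0.59) for *Angpt4*. Among the members, *Ptprb* and *Tek* had r = 0.72 in the first table and 0.28 in the second, *Ptprb* and *Tie1* 0.71 and 0.81, and *Tek* and *Tie1* 0.74 and 0.10.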

How the data were processed

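Bulk RNA-seq of polyA-selected RNA was analysed from 57 libraries, grouped by tissue, stage and genotype from the deposited labels. Per the submitters' processing notes and the study's methods, reads were trimmed with Trim Galore 0.6.5, mapped with STAR 2.7.9a to GRCm39 and counted per gene with featureCounts 2.0.3 on a curated Ensembl annotation. The authors deposited raw counts, whole numbers without normalization, and TPM made from them. Counts of the 2 tables, from different centres, were never tested together.

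In R 4.3.3, counts were tested by quasi-likelihood with edgeR 4.0.16 (TMM, Benjamini-Hochberg adjustment over all genes tested). Genes whose mean TPM was below 1 in both groups were left out. A call required a fold change of 1.5 or more with an adjusted p below 0.05, an interaction the p alone. CPM are counts scaled to library size with TMM factors. Ratios used log2(TPM + 0.1), and likeness log2(TPM + 1). Tables and figures were made with Python 3.11.15, numpy 2.4.6, pandas 2.3.3 and matplotlib 3.10.9, and the tests were checked on simulated data.

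The members and lists were chosen with earlier results of these data known, and the study's methods had been read. By a fixed rule, the text names the 6 members, *Hoxa5*, called genes or the largest difference in the pathway, R3 phosphatase and VEGF lists between genotypes, and the 3 genes most like each member; other genes were chosen after their values were seen. Alternatives were DESeq2 1.42.0, edgeR with size factors of DESeq2, a filter at 10 counts instead of 1 TPM, no filter, 1 fit for a whole table, the replicate number as a block and leaving out each library in turn. Libraries had different counts (0 identical pairs). Upstream sequences of the other genes are not reported here. Same-numbered libraries were taken as paired where every pair's deviations from the group means correlated above 0.1. That held in wt trachea and lung at E15.5 (0.16, 0.10, 0.43 and 0.36), where the replicate block changed no call of the 6 genes. In iBAT all correlations were positive, from 0.07 to 0.19. The iBAT sample names share leading numbers across genotypes, whose meaning is not given in the sources used here, and with these numbers as a block no gene was called either.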

Additional observations from a re-analysis of the deposited data

Results flagged for a closer look

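In 5 of 78 values checked, 1 library lay far from the others of its group, which chance gives in about 1 of 20 groups. In *Hoxa5*-/- trachea replicate 3, the library rich in skeletal muscle and cartilage markers, *Angpt1* stood at 8.26 TPM against 14.45 to 15.22 in the other 3 libraries and *Angpt2* at 38.6 against 61.8 to 64.5. In *Hoxa5*-/- lung at E12.5 replicate 1, rich in haematopoietic markers, *Angpt2* stood at 15.1 TPM against 10.52 to 10.73. In *Hoxa5*-/- lung at E15.5 replicate 4, rich in rRNA-like counts, *Tie1* stood at 72.6 TPM against 121.5 to 134, while on the CPM scale it stood at 133.0 against 152.6 to 167.0. In wt somites at E10.5 replicate 3, *Ptprb* stood at 5.55 TPM against 4.04 to 4.15. Its skeletal muscle marker sum was 280 TPM. The causes were not tested.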

How the results depend on the processing

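The count of called genes other than *Ptprb* between genotypes was 0 under every alternative in 6 tissues and stages, while in diaphragm it ranged from 0 to 1 over the omission of single libraries (*Tek* at -0.60, adjusted p = 0.0478, without wt replicate 4). For the interaction of diaphragm against lung at E15.5 the count was 1, *Tek*, under DESeq2 and 1 with the replicate block (adjusted p = 0.0427), and 0 to 1 over omissions (adjusted p = 0.0439 without diaphragm wt replicate 4). For somites it was 0 to 1, with *Tie1* called without wt replicate 3 of E10.5. With the replicate block *Tie1* in lung at E15.5 had an adjusted p of 0.000786 and *Tek* in diaphragm 0.0209, both under 1.5-fold. There the samples share only a number, and the block changed no other call. *Tek* in diaphragm passed the p threshold under 1.5-fold with at least 10 counts (0.0445), DESeq2 size factors in edgeR (0.0492), no filter (0.0393) and 1 fit for the table (0.000473).

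Uncalled values near 0 changed sign when 1 library was left out: between genotypes *Angpt2* in trachea (-0.18 to 0.04), *Angpt1* in lung at E12.5 (-0.01 to 0.12), *Tek* (-0.09 to 0.01) and *Angpt1* (0.00 to 0.11) in lung at E15.5, *Angpt1* in diaphragm (-0.21 to 0.02, and 0.05 without replicate 3 of both genotypes, chosen after seeing the data), *Angpt4* in somites at E10.5 (-0.05 to 0.32), *Ptprb* (-0.15 to 0.01) and *Tie1* (-0.08 to 0.02) in somites at E12.5, and *Tie1* (0.00 to 0.09) and *Angpt1* (-0.12 to 0.02) in iBAT. Uncalled interactions did so too: *Tek* (-0.005 to 0.045) and *Angpt2* (-0.15 to 0.05) in iBAT against somites, *Angpt1* between the lung stages (-0.06 to 0.07), *Tie1* in diaphragm against lung (-0.07 to 0.12) and *Angpt4* in trachea against lung (-0.29 to 0.18), diaphragm against lung (-0.26 to 0.21) and diaphragm against trachea (-0.10 to 0.17). The rise of *Ptprb* in wt somites fell under 1.5-fold with at least 10 counts (0.57) and without replicate 1, 2 or 4 at E10.5 or 3 or 4 at E12.5 (0.52 to 0.58). The causes were not tested. Precision is limited by 3 to 5 libraries per group, and for *Angpt4* by its few counts outside the trachea.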
